A study of Homo sapiens with 8 samples.

Results

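RNA counted on the exons of 36 genes of homologous recombination and of the Fanconi anemia pathway was followed in IMR90 cells, a human lung fibroblast line, across 4 conditions. The libraries were made by factory RNA-Seq, a method meant to capture nascent RNA, but exon counts do not separate nascent from mature RNA. The genes were chosen by symbol, with earlier results of these data known. They form a list of factors that prepare broken DNA, carry out or assist strand exchange, unlock DNA crosslinks or resolve joined DNA molecules. POLQ, which serves an end joining route, is also on the list. All 36 were found among the 28265 genes of the count tables. The conditions were control cells, labelled "young", cells kept with the small molecule inflachromene (ICM) for 3 or for 6 days, and cells labelled MetaICM, with 2 libraries each. ICM binds the chromatin proteins HMGB1 and HMGB2, and the series describes it as a chemical inducer of a state resembling replicative senescence. What the MetaICM cells received is not given in the sources used here, so they are treated as a group of their own. All libraries come from the same fibroblast line, no allele was changed, and the labels do not say whether the 2 libraries of a condition came from separate cultures. The p-values below therefore measure the spread between these libraries, which may be technical.

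Homologous recombination repairs a broken chromosome by copying the intact sister, which exists only once DNA has been replicated. Nucleases first trim the broken end to leave a single strand, BRCA2 and other mediators help to coat that strand with protein, and the coated strand is paired with the matching sequence. The Fanconi anemia pathway acts where both strands of DNA are tied together by a crosslink: a multi-protein core complex attaches ubiquitin to FANCD2 and FANCI, and nucleases then cut the crosslink out. Many of these genes are transcribed mostly in cells that divide, and mutations in them cause Fanconi anemia or a high risk of breast and ovarian cancer.

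The 8 libraries held between 12095123 and 23166405 counted read pairs, and levels are given as CPM, the count of a gene as a share of the library total after TMM scaling, times 1000000. MKI67, which encodes the proliferation antigen Ki-67, stood at 576 CPM on average in control, 24.6 after 3 days, 12.5 after 6 days and 263 in MetaICM. CDKN1A, which encodes the cell cycle inhibitor p21, ran the other way, with mean levels of 116, 724, 798 and 378 CPM in the same order. The summed level of 9 fibroblast markers lay at 54556 to 60494 CPM in control, 26515 to 27356 after 3 days, 20950 to 21149 after 6 days and 34600 to 37580 in MetaICM, while epithelial markers summed to at most 18.2 CPM and endothelial markers to at most 6.66 CPM in any library. Leukocyte markers summed to 4.97 to 6.36 CPM in control and 18.1 to 22.0 CPM after ICM at either time, and to 14.1 to 14.6 CPM in MetaICM. CD3E was at 0, and CD68, a lysosomal gene that fibroblasts also express, gave most of that sum. The part of these shifts in the results below was not tested. In bulk RNA, fewer cells in the cycle stages that use a gene and less RNA of it per cell cannot be told apart.

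Most of the 36 genes were lower after ICM, and none passed the test in the other direction. A gene was taken as differentially expressed at an adjusted p-value under 0.05 from the quasi-likelihood test of edgeR, adjusted by Benjamini-Hochberg over all genes tested, and an absolute log2 fold change (log2FC) over 0.6. After 3 days, 26 of the 36 were lower than in control, against 13.2% of the 15692 genes tested, and none was higher, against 8.85%. After 6 days, 29 of the 36 were lower, against 17.2% of 15950 genes, and none was higher, against 13.3%. At either time no member was higher at an unadjusted p under 0.05, whether by edgeR or by DESeq2, which called 25 and 28 members lower. With scaling to library totals, the 3-day split of all genes was 1785 higher and 1767 lower in place of 1389 and 2067, while 25 members were lower and none higher.

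The median log2FC of the 36 was -1.30 after 3 days and -1.48 after 6 days, beside 0.01 and 0.00 over all genes tested. All 36 values were below 0 at 3 days and 35 at 6 days. Of the 36 genes, 25 were called lower at both times, FANCM at 3 days only, and RAD51D, FANCC, FANCL and MUS81 at 6 days only. PALB2, RAD51C, XRCC3, FANCF, SLX4 and ERCC4 were called at neither time. The mean level after 6 days was under 25% of control for 12 genes and under 50% for 24, and after 3 days these counts were 11 and 22. The 2 comparisons share the control libraries, so the second is no independent repeat of the first.

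**Figure D1:**
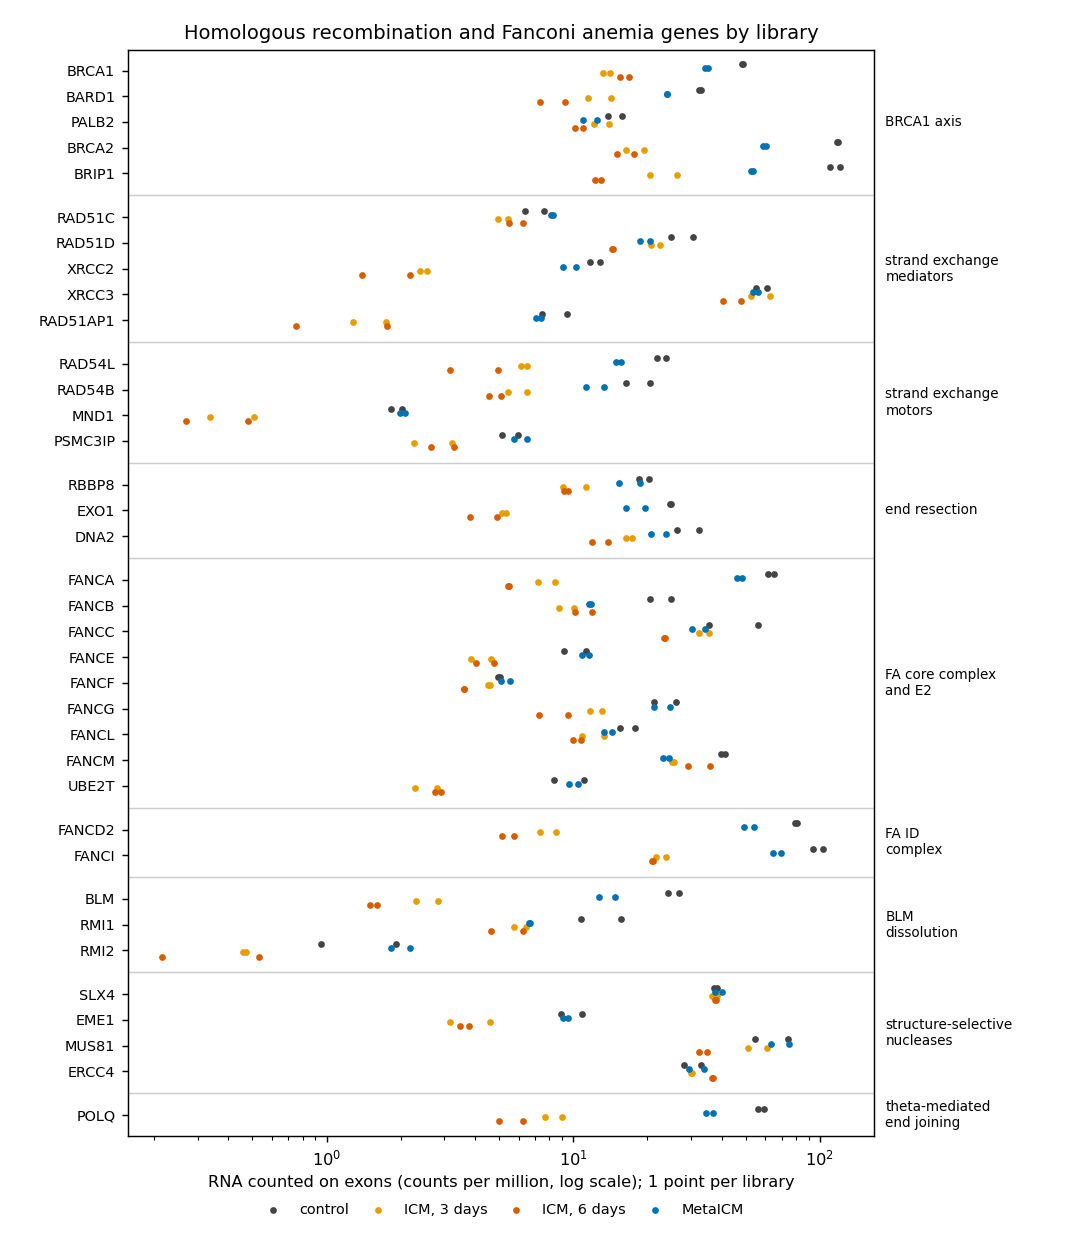
Exon-count level of each of the 36 genes in each library, in CPM on a log scale, with 1 point per library and the genes grouped by role. Control points (dark) and MetaICM points (blue) lie to the right of the ICM points for most genes, whereas the points of SLX4 and ERCC4 lie close together in all 4 conditions.

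Per kilobase of exon, which allows genes to be set side by side, the control levels of the 36 ranged from 0.984 CPM per kb for RMI2 to 23.3 CPM per kb for MUS81. XRCC3 (21.5 CPM per kb), FANCI (20.2), BRIP1 (14.1) and FANCD2 (13.5) followed MUS81, and FANCF (1.52) and MND1 (1.70) stood just above RMI2. The length includes exon bases shared with another gene, where pairs were not counted. Levels per kb are therefore too low for the 11 members with such bases. FANCI is among them (431 of 4877 bases), so its order beside XRCC3 is not firm. Across the 36 genes, the 6-day log2FC had a Spearman rho of -0.19 with the control level per kb, -0.18 with exon length and -0.39 with the span of the gene, given as descriptions over genes that share their libraries.

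The 3 genes with the largest falls after 6 days were BLM, FANCD2 and FANCA, and those with the highest log2FC were ERCC4 and SLX4. Their upstream sequences are shown so that the promoters of the lowest and of the least changed genes can be compared. Each is the 250 bases before the RefSeq start, read 5′ to 3′ on the strand of the gene and placed in hg19 by exact match (BLM chr15:91260327-91260576 on the + strand, FANCD2 chr3:10067871-10068120 on the + strand, FANCA chr16:89883056-89883305 on the - strand, SLX4 chr16:3661608-3661857 on the - strand and ERCC4 chr16:14013761-14014010 on the + strand). Capitals mark matches, on either strand, to 3 kinds of word: the E2F words TTTGGCGC, TTTCCCGC, TTTCGCGC and TTTGCCGC, the cell cycle homology (CHR) words TTTGAA and TTCGAA, and CCAAT.
BLM: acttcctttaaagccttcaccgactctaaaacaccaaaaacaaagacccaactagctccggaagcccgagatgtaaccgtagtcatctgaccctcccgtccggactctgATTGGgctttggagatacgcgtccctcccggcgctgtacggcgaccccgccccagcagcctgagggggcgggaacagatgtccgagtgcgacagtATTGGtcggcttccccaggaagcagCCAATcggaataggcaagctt
FANCD2: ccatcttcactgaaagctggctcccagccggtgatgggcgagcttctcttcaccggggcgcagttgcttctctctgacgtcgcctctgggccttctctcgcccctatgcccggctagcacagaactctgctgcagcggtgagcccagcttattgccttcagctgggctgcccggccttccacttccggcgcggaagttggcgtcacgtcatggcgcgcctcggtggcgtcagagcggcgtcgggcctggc
FANCA: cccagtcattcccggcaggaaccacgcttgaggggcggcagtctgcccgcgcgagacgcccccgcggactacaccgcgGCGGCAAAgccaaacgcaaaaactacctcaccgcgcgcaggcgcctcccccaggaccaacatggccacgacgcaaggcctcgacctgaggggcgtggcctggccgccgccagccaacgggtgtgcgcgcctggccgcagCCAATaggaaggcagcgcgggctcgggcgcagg
SLX4: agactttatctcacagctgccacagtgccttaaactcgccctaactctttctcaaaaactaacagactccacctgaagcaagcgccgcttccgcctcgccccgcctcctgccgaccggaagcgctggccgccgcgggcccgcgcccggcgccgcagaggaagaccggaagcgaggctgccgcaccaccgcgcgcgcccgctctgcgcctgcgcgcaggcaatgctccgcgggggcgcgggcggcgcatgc
ERCC4: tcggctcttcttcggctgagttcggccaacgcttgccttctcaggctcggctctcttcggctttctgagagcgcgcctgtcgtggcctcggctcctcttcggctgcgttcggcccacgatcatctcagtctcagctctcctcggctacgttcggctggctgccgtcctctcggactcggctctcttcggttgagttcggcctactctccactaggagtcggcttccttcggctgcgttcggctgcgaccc
BLM held 3 CCAAT matches and FANCA 1 E2F word and 1 CCAAT match, whereas SLX4 and ERCC4 held no match in these windows. FANCD2 held an E2F word, GCGGGAAA, that begins 2 bases before its start and runs across it, so it falls outside the letters printed. A match is a description of the letters and not of a bound site.

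Over windows of 300 bases, from 250 before the start to 50 after it, E2F words were found in 6 of the 31 genes whose RefSeq start lay within 200 bases of the first base in the count tables. They were XRCC2, MND1, EXO1, FANCA, FANCC and FANCD2. The share of 19.4% stood beside 3.31% of all 35116 promoters of that length. It was 4.64% of the promoters of genes tested at 6 days and 6.13% of those of genes lower at 6 days. Here and below, such shares count every listed promoter of a gene, without the limit of 200 bases. Each member, in contrast, counts with a single promoter. FANCC held 2 such words, beginning 172 and 46 bases before the start. The median 6-day log2FC was -2.64 over the 6 genes with an E2F word and -1.06 over the other 25. CCAAT was found in 13 of the 31, XRCC3 holding 5 matches. Its share of 41.9% stood beside 34.6% of all promoters and 34.6% of those of genes tested at 6 days. CHR words were found in 4 genes, namely BRIP1, FANCC, UBE2T and POLQ. Their share of 12.9% stood beside 16.4% and 12.6% in the same order. The median 6-day log2FC was -2.49 with a CHR word and -1.23 without. For CCAAT it was -1.27 with and -1.34 without. BRCA2 (6-day log2FC -2.86) and BARD1 (-1.98), both called lower, held no word of the 3 kinds. PALB2 and FANCF, called at neither time, held CCAAT. The part of any of these words in the falls was not tested. RAD54B, DNA2, FANCI and RMI2 were without an entry in the table, and BRCA1 was left out because the start listed there lies far upstream of the BRCA1 exons that were counted.

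BRCA1 and BARD1 form a ubiquitin ligase that acts at breaks, PALB2 joins BRCA1 to BRCA2, BRCA2 is a mediator that prepares single strands for exchange, and BRIP1 is a DNA helicase that binds BRCA1. Of these 5 genes, 4 fell at both times and PALB2 was called at neither. BRIP1, on chromosome 17 of hg19 from 59756500 to 59940889, gave 110 and 121 CPM in control, 20.5 and 26.4 after 3 days, 12.2 and 12.9 after 6 days and 52.5 and 53.3 in MetaICM. The libraries of the 4 conditions did not overlap, and the level at 6 days lay below that at 3 days. Its log2FC was -2.31 at 3 days (standard error 0.15, adjusted p = 4e-07) and -3.20 at 6 days (standard error 0.13, adjusted p = 7.4e-08, both by quasi-likelihood in edgeR). BRCA2, on chromosome 13 from 32889617 to 32973809, gave 117 and 119 CPM in control, 16.4 and 19.3 after 3 days, 15.0 and 17.6 after 6 days and 60.3 and 58.7 in MetaICM. Here the 2 time points overlapped, and the log2FC was -2.73 (standard error 0.14, adjusted p = 5.7e-08) at 3 days and -2.86 (standard error 0.13, adjusted p = 1.5e-07) at 6 days.

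BRCA1 gave 48.5 and 48.8 CPM in control, 13.1 and 14.1 after 3 days, 16.8 and 15.4 after 6 days and 34.4 and 35.3 in MetaICM. Its log2FC was -1.84 at 3 days and -1.60 at 6 days. BARD1, the partner of BRCA1, gave 32.9 and 32.5 CPM in control, 11.4 and 14.2 after 3 days, 7.36 and 9.30 after 6 days and 24.0 and 24.1 in MetaICM. BARD1 thus reached its lowest level at 6 days (log2FC -1.98), when BRCA1 stood above its 3-day libraries. PALB2 gave 13.8 and 15.7 CPM in control, 12.1 and 13.95 after 3 days, 10.2 and 10.998 after 6 days and 10.9 and 12.5 in MetaICM. Its 6-day log2FC of -0.48 (standard error 0.16) had an adjusted p of 0.037 but did not pass the 0.6 limit on its size, so that the gene between BRCA1 and BRCA2 in this chain was the member not called.

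RAD51C, RAD51D, XRCC2 and XRCC3 are related proteins that form complexes assisting strand exchange, and RAD51AP1 helps a strand to invade the matching DNA. These 5 genes split. XRCC2, on chromosome 7 from 152341862 to 152373226, gave 11.7 and 12.8 CPM in control, 2.39 and 2.56 after 3 days, 1.40 and 2.18 after 6 days and 9.06 and 10.2 in MetaICM. RAD51AP1 gave 7.49 and 9.44 CPM in control, 1.75 and 1.28 after 3 days, 0.752 and 1.75 after 6 days and 7.08 and 7.38 in MetaICM. For both genes every ICM library lay below every control and MetaICM library. The 6-day log2FC was -2.77 for XRCC2 (standard error 0.25, adjusted p = 1.2e-05 by quasi-likelihood in edgeR) and -2.74 for RAD51AP1 (standard error 0.33, adjusted p = 0.00011).

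The remaining mediators stayed nearer control. RAD51C gave 6.36 and 7.62 CPM in control, 4.96 and 5.46 after 3 days, 6.28 and 5.47 after 6 days and 8.27 and 8.12 in MetaICM. XRCC3 gave 61.1 and 55.1 CPM in control, 52.8 and 63.0 after 3 days, 40.4 and 47.8 after 6 days and 53.4 and 56.4 in MetaICM. Neither passed the test, with 6-day log2FC of -0.25 (standard error 0.21, adjusted p = 0.37) and -0.40 (standard error 0.13, adjusted p = 0.031). RAD51D gave 24.8 and 30.6 CPM in control, 20.7 and 22.4 after 3 days, 14.4 and 14.3 after 6 days and 18.7 and 20.4 in MetaICM. It was called at 6 days only (log2FC -0.94, against -0.36 at 3 days), and 423 of its exon bases are shared on the same strand with a read-through gene, and pairs there were not counted.

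RAD54L and RAD54B are motor proteins that move along DNA and assist strand exchange, and MND1 and PSMC3IP form a complex that aids strand exchange and is best known from meiosis. All 4 fell at both times. RAD54L, on chromosome 1 from 46713360 to 46744145, gave 21.8 and 23.8 CPM in control, 6.11 and 6.47 after 3 days, 3.17 and 4.94 after 6 days and 14.9 and 15.6 in MetaICM, and its 6-day log2FC was -2.49 (standard error 0.21, adjusted p = 8.4e-06, by quasi-likelihood in edgeR). RAD54B gave 16.4 and 20.4 CPM in control, 5.42 and 6.47 after 3 days, 5.10 and 4.57 after 6 days and 13.3 and 11.3 in MetaICM. For both motors the 6-day libraries were the lowest and the MetaICM libraries lay between control and ICM. Most of the RAD54B exon bases, 5391 of 8465, lie also in FSBP on the same strand, so its counts come from the remainder.

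MND1, low per kilobase already in control, gave 2.02 and 1.82 CPM in control, 0.506 and 0.337 after 3 days, 0.268 and 0.478 after 6 days and 1.98 and 2.08 in MetaICM. PSMC3IP, its partner, gave 5.95 and 5.13 CPM in control, 2.25 and 3.24 after 3 days, 3.28 and 2.66 after 6 days and 6.48 and 5.77 in MetaICM. The log2FC at 6 days was -2.35 for MND1 and -0.91 for PSMC3IP. For PSMC3IP the call rested on single libraries: the adjusted p was 0.159 at 3 days without ICM 3-day replicate 1 and 0.117 at 6 days without ICM 6-day replicate 2.

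RBBP8 (also called CtIP) starts the trimming of broken ends, and the nucleases EXO1 and DNA2 extend it. All 3 fell at both times, EXO1 most. EXO1, on chromosome 1 from 242011493 to 242053241, gave 24.9 and 24.6 CPM in control, 5.33 and 5.12 after 3 days, 3.81 and 4.89 after 6 days and 16.4 and 19.6 in MetaICM, and its 6-day log2FC was -2.51 (standard error 0.18, adjusted p = 2.2e-06, by quasi-likelihood in edgeR). RBBP8 gave 18.5 and 20.3 CPM in control, 11.2 and 9.10 after 3 days, 9.50 and 9.14 after 6 days and 15.3 and 18.7 in MetaICM. DNA2 gave 26.2 and 32.2 CPM in control, 17.2 and 16.3 after 3 days, 11.9 and 13.8 after 6 days and 23.8 and 20.6 in MetaICM. RBBP8 and DNA2 thus kept 48.1% and 44.0% of the control mean at 6 days, against 17.6% for EXO1.

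**Figure D2:**
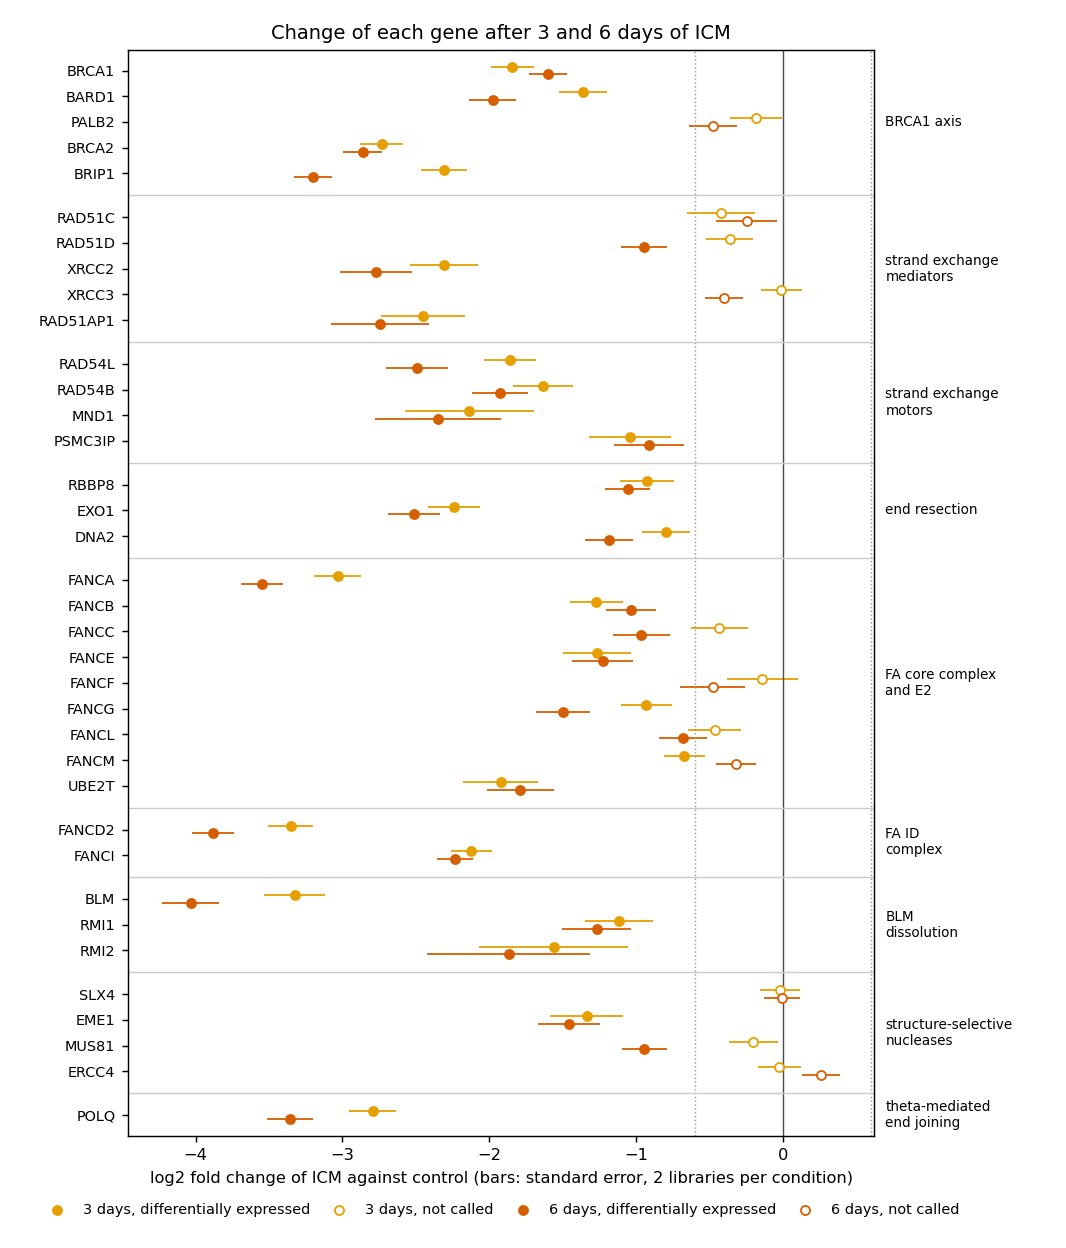
Log2 fold change of each gene after 3 days (yellow) and 6 days (red) of ICM against control, with bars for the standard error, filled points for differentially expressed genes and dotted lines at the size limit of 0.6. Within the strand exchange mediators, the core complex and the nucleases, filled points far to the left stand beside open points near 0, and ERCC4 at 6 days lies right of 0 at 0.26.

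FANCA, FANCB, FANCC, FANCE, FANCF, FANCG and FANCL are subunits of the Fanconi anemia core complex, in which FANCL is the ubiquitin ligase, FANCM is a DNA translocase that brings the complex to stalled forks, and UBE2T is the ubiquitin-conjugating enzyme. Of these 9 genes, 6 were lower after 3 days and 7 after 6 days, and the sizes differed widely. FANCA, on chromosome 16 from 89803957 to 89883055, gave 61.8 and 65.3 CPM in control, 7.22 and 8.43 after 3 days, 5.42 and 5.47 after 6 days and 48.2 and 46.2 in MetaICM. Its mean thus dropped to 12.3% of control and then to 8.57%, with log2FC of -3.03 (standard error 0.16, adjusted p = 5.6e-08) and -3.55 (standard error 0.14, adjusted p = 7.4e-08, by quasi-likelihood in edgeR). The FANCA exons share 1417 bases with ZNF276 on the opposite strand, on which pairs were not counted.

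UBE2T gave 11.1 and 8.36 CPM in control, 2.80 and 2.29 after 3 days, 2.90 and 2.76 after 6 days and 10.5 and 9.59 in MetaICM. FANCG gave 25.98 and 21.2 CPM in control, 13.1 and 11.7 after 3 days, 7.25 and 9.51 after 6 days and 24.7 and 21.2 in MetaICM. FANCE gave 11.3 and 9.19 CPM in control, 4.64 and 3.84 after 3 days, 4.03 and 4.78 after 6 days and 11.5 and 10.8 in MetaICM. In all 3 genes the MetaICM libraries lay within or at the edge of the control range, and the 6-day log2FC was -1.79, -1.50 and -1.23. FANCB behaved otherwise: its 20.5 and 24.8 CPM in control compare with 8.78 and 10.04 after 3 days, 10.1 and 11.95 after 6 days and 11.8 and 11.6 in MetaICM, so that MetaICM stayed at the level of the ICM libraries.

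The remaining core genes changed less. FANCC gave 35.4 and 56.0 CPM in control, 32.3 and 35.5 after 3 days, 23.6 and 23.3 after 6 days and 30.2 and 34.3 in MetaICM. Its control libraries were far apart, and the calls moved with them: at 3 days the log2FC was -0.73 (adjusted p = 3.7e-05) without control replicate 1, and at 6 days it was -0.60, just inside the size limit, without control replicate 2. FANCL gave 15.5 and 17.7 CPM in control, 10.8 and 13.3 after 3 days, 9.99 and 10.7 after 6 days and 14.3 and 13.3 in MetaICM. The 6-day call (log2FC -0.68, adjusted p = 0.0067) was lost without control replicate 2 (-0.58) and without ICM 6-day replicate 1 (adjusted p = 0.0943). FANCF, a gene without introns in the counted annotation, gave 5.05 and 4.97 CPM in control, 4.6 and 4.52 after 3 days, 3.60 and 3.61 after 6 days and 5.54 and 5.08 in MetaICM, and its 6-day log2FC of -0.48 did not pass (adjusted p = 0.11).

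FANCM was the only member called lower at 3 days but not at 6 days. It gave 39.9 and 41.1 CPM in control, 25.2 and 25.7 after 3 days, 29.3 and 35.7 after 6 days and 24.6 and 23.2 in MetaICM. The log2FC was -0.67 at 3 days (standard error 0.14, adjusted p = 0.0036) and -0.32 at 6 days (standard error 0.14, adjusted p = 0.085, by quasi-likelihood in edgeR), and the direct difference between the times, 0.35 (adjusted p = 0.047), was below the size limit. The 3-day call was lost with scaling to library totals (log2FC -0.60) and without ICM 3-day replicate 1 (adjusted p = 0.0514). It was also the only member with its lowest mean in MetaICM.

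FANCD2 and FANCI form the clamp that the core complex marks with ubiquitin, the central step of the pathway, and both fell steeply. FANCD2, on chromosome 3 from 10068121 to 10143616, gave 80.8 and 79.5 CPM in control, 7.31 and 8.49 after 3 days, 5.15 and 5.74 after 6 days and 49.4 and 54.1 in MetaICM. FANCI gave 103 and 93.9 CPM in control, 21.7 and 23.7 after 3 days, 20.8 and 21.0 after 6 days and 69.3 and 64.6 in MetaICM. At 6 days FANCD2 thus kept 6.80% of its control mean and FANCI 21.3%. The FANCD2 log2FC was -3.35 at 3 days (standard error 0.16, adjusted p = 2.5e-08) and -3.88 at 6 days (standard error 0.14, adjusted p = 4.3e-08), and that of FANCI -2.12 (standard error 0.14) and -2.24 (standard error 0.12, adjusted p = 4.1e-07, by quasi-likelihood in edgeR).

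BLM is the helicase mutated in Bloom syndrome, which with RMI1 and RMI2 undoes crossed DNA molecules without exchanging their arms. BLM, on chromosome 15 from 91260577 to 91359396, gave 24.1 and 26.7 CPM in control, 2.30 and 2.83 after 3 days, 1.5 and 1.59 after 6 days and 12.7 and 14.8 in MetaICM. It had the largest fall of the 36 at 6 days, to 6.09% of the control mean, with log2FC of -3.32 (standard error 0.21, adjusted p = 2.1e-07) and -4.03 (standard error 0.20, adjusted p = 1.9e-07, by quasi-likelihood in edgeR). RMI1 gave 10.8 and 15.6 CPM in control, 5.75 and 6.40 after 3 days, 6.28 and 4.62 after 6 days and 6.68 and 6.60 in MetaICM. RMI1 had a 6-day log2FC of -1.27 (standard error 0.24).

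RMI2 was the lowest of the 36 per kilobase, with 0.951 and 1.90 CPM in control, 0.460 and 0.472 after 3 days, 0.215 and 0.531 after 6 days and 1.83 and 2.17 in MetaICM. Its control libraries stood apart, and its calls at 3 days (log2FC -1.56, adjusted p = 0.037) and at 6 days (-1.87, adjusted p = 0.020) were weak. The 3-day adjusted p was 0.127 by DESeq2, 0.29 without control replicate 2, 0.198 without ICM 3-day replicate 1 and 0.129 without ICM 3-day replicate 2. At 6 days it was 0.0522 by DESeq2, 0.094 without control replicate 2 and 0.164 without ICM 6-day replicate 1. With so few reads the fall of RMI2 was at the limit of what these libraries can show.

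SLX4 is a scaffold that holds several nucleases, MUS81 and EME1 together cut branched DNA, and ERCC4 (also called XPF) cuts with ERCC1 both in crosslink repair and in nucleotide excision repair. SLX4, on chromosome 16 from 3631184 to 3661607, gave 37.3 and 38.2 CPM in control, 36.5 and 38.2 after 3 days, 37.9 and 37.5 after 6 days and 40.1 and 37.5 in MetaICM. ERCC4 gave 32.9 and 28.1 CPM in control, 29.9 and 30.3 after 3 days, 36.8 and 36.6 after 6 days and 33.8 and 29.4 in MetaICM. The log2FC of SLX4 was -0.02 at 3 days (standard error 0.14) and -0.01 at 6 days (standard error 0.12), and that of ERCC4 -0.03 (standard error 0.15) and 0.26 (standard error 0.13, adjusted p = 0.14, by quasi-likelihood in edgeR). The sign of these small values depended on the scaling, SLX4 and ERCC4 being above 0 at 3 days with library totals. Over all 8 libraries SLX4 spanned 36.5 to 40.1 CPM and ERCC4 28.1 to 36.8 CPM, with no condition set apart except ERCC4 at 6 days, whose libraries were the highest.

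EME1, on chromosome 17 from 48450581 to 48458820, gave 10.9 and 8.94 CPM in control, 4.6 and 3.17 after 3 days, 3.49 and 3.77 after 6 days and 9.06 and 9.51 in MetaICM. It fell at both times (6-day log2FC -1.46, standard error 0.21, adjusted p = 0.00033, by quasi-likelihood in edgeR). MUS81, its catalytic partner, gave 74.6 and 54.5 CPM in control, 61.3 and 51.1 after 3 days, 32.4 and 35.0 after 6 days and 63.4 and 75.2 in MetaICM. The 3-day libraries of MUS81 overlapped control (log2FC -0.20, adjusted p = 0.39), and the 6-day libraries lay below both (log2FC -0.94, adjusted p = 0.00081). Both subunits of this nuclease were called lower at 6 days, and at 3 days EME1 was called and MUS81 was not.

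POLQ, which encodes DNA polymerase theta and serves an end joining route that competes with recombination for trimmed ends, is the last member. On chromosome 3 from 121150279 to 121264835, it gave 59.2 and 55.9 CPM in control, 7.68 and 9.03 after 3 days, 4.99 and 6.27 after 6 days and 34.5 and 36.9 in MetaICM. It fell by 2.79 on the log2 scale at 3 days (standard error 0.16, adjusted p = 1e-07) and by 3.35 at 6 days (standard error 0.16, adjusted p = 1.6e-07, by quasi-likelihood in edgeR).

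The direct comparison of 6 with 3 days asks whether the longer exposure went further. Of 34 members tested (MND1 and RMI2 did not pass the count filter), BARD1, BRIP1 and MUS81 were lower at 6 days, against 4.54% of 15845 genes, and none was higher, against 3.53%. The 2 members higher at an unadjusted p under 0.05, by edgeR and by DESeq2, were FANCM and ERCC4. The median log2FC of the 34 was -0.29, beside -0.01 over all genes. BRIP1 had the largest difference, -0.89 (standard error 0.14, adjusted p = 0.00015, by quasi-likelihood in edgeR), followed by MUS81 with -0.75 (standard error 0.11, adjusted p = 9.4e-05) and BARD1 with -0.62 (standard error 0.17, adjusted p = 0.015). BRCA1 stood at 0.24 (standard error 0.14, adjusted p = 0.24).

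Several of these calls changed when 1 library was left out. BARD1 was not called without ICM 3-day replicate 2 (log2FC -0.47) or without ICM 6-day replicate 1 (-0.45). MUS81 was not called without ICM 3-day replicate 1 (-0.598, just inside the size limit), whereas BRIP1 was called in every alternative. RAD54L, with -0.63 and an adjusted p of 0.055, was called lower without ICM 3-day replicate 1 (adjusted p = 0.0348), without ICM 3-day replicate 2 (0.0453) and without ICM 6-day replicate 2 (0.0163). Without ICM 3-day replicate 1, RAD51D (-0.64), FANCA (-0.63), FANCD2 (-0.64) and POLQ (-0.68) were also called, and FANCG was called without ICM 3-day replicate 2 (-0.65) and without ICM 6-day replicate 2 (-0.78). The number of members lower at 6 days therefore ran from 2 to 7 over the libraries left out, with 5 without ICM 6-day replicate 2 and 7 without ICM 3-day replicate 1.

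In MetaICM most of these genes lay between control and ICM. Ordered by mean, 19 of the 36 ran from control through MetaICM and 3 days down to 6 days, and the mean was highest in control for 26 genes, in MetaICM for 9 and after 6 days for ERCC4 alone. Neighbours in that order overlapped for some of these genes. The 3-day and 6-day libraries overlapped for BRCA2, RAD51AP1, RBBP8, RMI1 and EME1, whereas those of most others, such as FANCA, BLM and POLQ, lay apart. Against control, 8 members were lower in MetaICM, against 8.99% of 15904 genes, and none was higher, against 7.41%, nor did any pass an unadjusted p under 0.05 in that direction by edgeR or DESeq2. The 8 were BRCA2, BRIP1, FANCB, FANCM, FANCD2, BLM, RMI1 and POLQ. The largest difference was that of BRIP1, which fell by 1.13 (standard error 0.11, adjusted p = 0.00017), followed by BRCA2 (-0.99, standard error 0.10), RMI1 (-0.98, standard error 0.20), FANCB (-0.95, standard error 0.15) and BLM (-0.89, standard error 0.14, adjusted p = 0.0024, by quasi-likelihood in edgeR). The median over the 36 was -0.37, beside 0.00 over all genes.

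**Figure D3:**
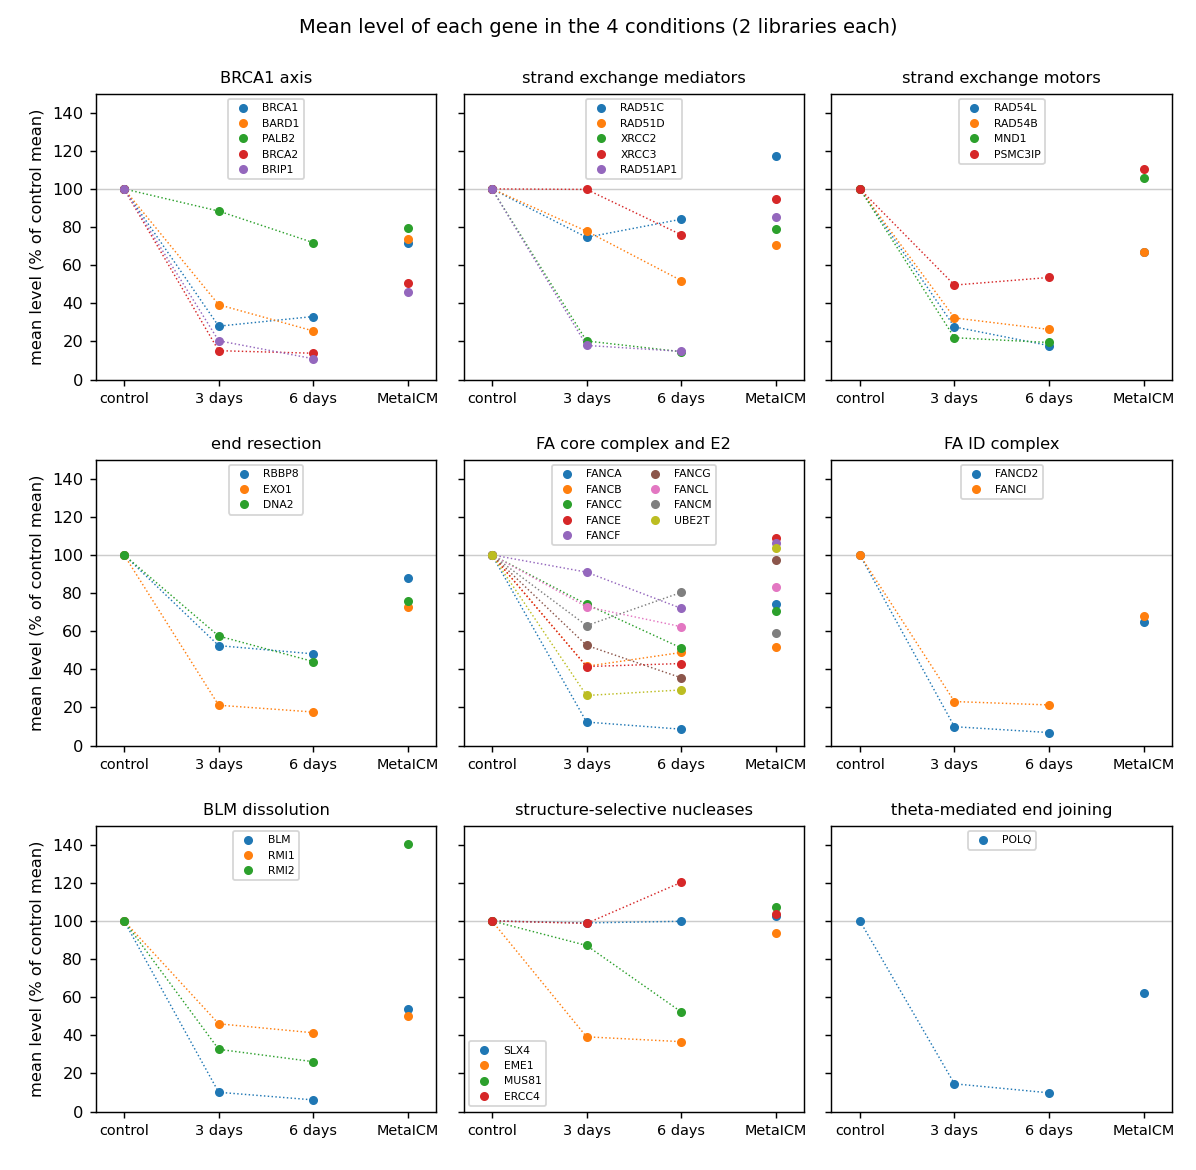
Mean level of each gene (2 libraries per condition) as a percentage of its control mean, in 9 panels by role, with dotted lines joining control, 3 days and 6 days. MetaICM points lie above the 6-day points in 34 of the 36 genes, with FANCM and ERCC4 below, and none lies under 25% of control.

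These MetaICM calls also moved with single libraries. FANCD2 (-0.63) was not called without MetaICM replicate 1 (adjusted p = 0.101) or without MetaICM replicate 2 (0.0515), FANCM was not without MetaICM replicate 2 (0.0628), and POLQ was not without MetaICM replicate 1 (0.0749). Without control replicate 1, RAD51D (-0.65), RAD54L (-0.64), RAD54B (-0.74) and FANCC (-0.79) were called lower as well, and without control replicate 2, FANCI (-0.62) was called lower and RMI2 (1.07, adjusted p = 0.0464) higher. The number of lower members thus ran from 6 without either MetaICM library to 12 without control replicate 1. RAD54L and RAD54B were also called lower, both at -0.60, with upper-quartile scaling.

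Against 6 days of ICM, 24 members were higher in MetaICM, against 15.7% of 16036 genes, and none was lower, against 12.0%, where FANCM and ERCC4 passed an unadjusted p under 0.05 by edgeR and FANCM by DESeq2. This comparison and that of 6 days against control share the 6-day libraries. RAD51D, FANCB, FANCC, FANCL and RMI1, which were called lower at 6 days than in control, were not called higher in MetaICM than at 6 days. BRCA2, BRIP1, FANCD2, BLM and POLQ were called higher in MetaICM than at 6 days and lower than in control, in comparisons that share the MetaICM libraries. The largest differences were those of FANCD2 (3.25, standard error 0.11, adjusted p = 8.8e-16), BLM (3.14, standard error 0.19) and FANCA (3.11, standard error 0.11, adjusted p = 1.2e-15, by quasi-likelihood in edgeR). Without MetaICM replicate 2, FANCF (0.62) was called as well. The median over the 36 was 1.34, beside 0.01 over all genes.

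Against 3 days, 23 members were higher, against 13.1% of 16209 genes, and none was lower, against 10.3%, with none lower at an unadjusted p under 0.05 by edgeR or DESeq2. Among them RAD51C rose by 0.66 on the log2 scale (standard error 0.18, adjusted p = 0.0074, by quasi-likelihood in edgeR), the only call of that gene in the 6 comparisons, which was lost without ICM 3-day replicate 1 (0.59). RBBP8 (0.74) was not called without MetaICM replicate 2 (0.58). FANCB, RMI1 and FANCM were lower than control in MetaICM (51.7%, 50.3% and 59.0% of the control mean) and not called higher than at either ICM time. Their log2FC was 0.08, 0.29 and -0.45 against 6 days and 0.33, 0.14 and -0.09 against 3 days.

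Several of these genes start back to back with a neighbour on the opposite strand. Such a neighbour, starting within 1000 bases, was listed for 13 members, and 9 of the neighbours had enough counts to be tested at 6 days. FANCD2 and CIDECP1 start 301 bases apart. CIDECP1 rose from 4.14 CPM in control to 7.58 and 7.77 CPM on average after 3 and 6 days (6-day log2FC 0.90, standard error 0.21, adjusted p = 0.0067), while FANCD2 fell. MOSPD2, 352 bases from FANCB, was higher at 6 days (0.74, standard error 0.13, adjusted p = 0.00097, by quasi-likelihood in edgeR), while FANCB was lower. The count tables are not strand-specific, but pairs that fell on exons of several genes were left out.

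C12orf4, 382 bases from RAD51AP1, stood at 0.08 (standard error 0.14), and NBR2, 193 bases from BRCA1, at -0.28 (standard error 0.25, adjusted p = 0.40), neither called at 6 days. HNRNPK, whose start lies 423 bases inside RMI1, stood at 0.16 (standard error 0.11), and MRPL27, 36 bases from EME1, at 0.39 (standard error 0.19), neither called. DCTN5 and ZFYVE21, next to PALB2 and XRCC3, were not called either, with -0.04 and -0.33. CRTC3-AS1, 206 bases from BLM, was the neighbour with the lowest value, -2.19 (standard error 0.84, adjusted p = 0.058), from levels under 1 CPM. No tested neighbour was thus called lower at 6 days by edgeR or DESeq2, against 17.2% of all genes tested. CRTC3-AS1 alone was lower at an unadjusted p under 0.05. CIDECP1 and MOSPD2 were the 2 called higher, against 13.3% of all genes tested. With 9 neighbours, these counts cannot be told apart from those shares. Of the 9 members beside them, 7 were called lower.

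**Figure D4:**
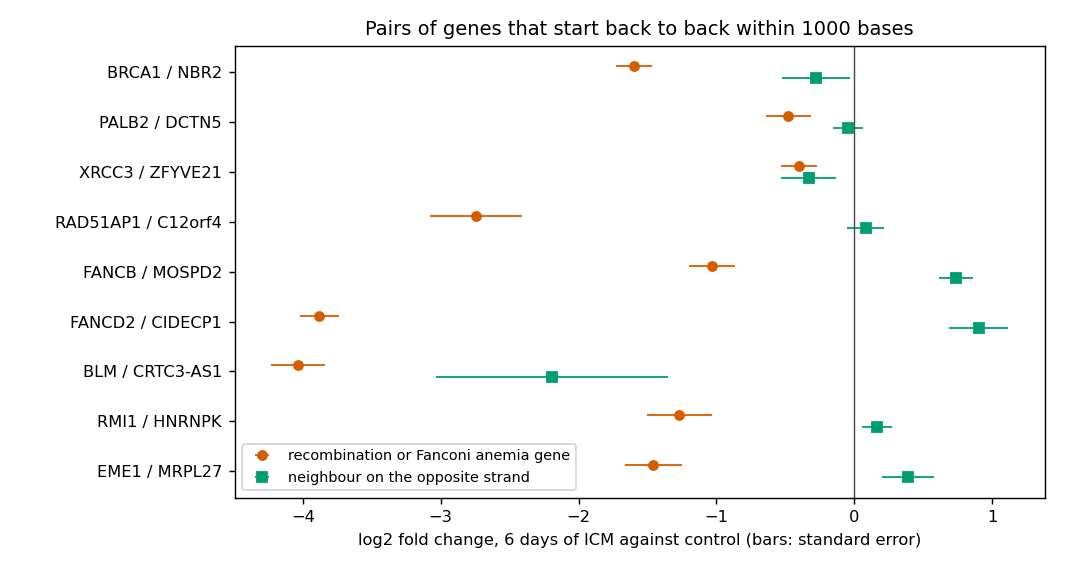
Log2 fold change after 6 days of ICM against control for members (circles) and for the neighbour on the opposite strand that starts within 1000 bases (squares), with bars for the standard error. The squares of CIDECP1 and MOSPD2 lie to the right of 0 at 0.90 and 0.74, while FANCD2 and FANCB lie to the left.

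Other lists of repair genes were set beside these values. Of 50 further genes of homologous recombination and the Fanconi anemia pathway, 47 were tested against control, with 14 lower (29.8%) and 3 higher (6.38%) after 3 days, against 13.2% and 8.85% of all genes. After 6 days 12 were lower (25.5%) and 5 higher (10.6%), against 17.2% and 13.3% of all genes. FIGNL1 (-1.40), an ATPase that acts in recombination, and HROB (-1.38), which brings a helicase to recombination sites, were among the largest falls at 6 days. The 3 largest rises were those of SWI5 (0.88), a recombination mediator, BABAM1 (0.73), a subunit of the BRCA1-A complex, and HELQ (0.71), a helicase. The median log2FC of this list was -0.21 at 6 days, against -1.48 for the 36 genes. Both lists were chosen with earlier results of these data known, so their difference is no independent comparison.

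In the lists of other repair routes, read against the same 17.2% of all genes lower and 13.3% higher at 6 days, 2 of 11 genes of non-homologous end joining were lower (18.2%) and 1 higher (9.09%), the extremes being PRKDC (-0.83), the kinase DNA-PKcs, and LIG4 (0.71), the ligase of that route. Of 7 mismatch repair genes, 2 were lower at 6 days (28.6%) and none higher. Nucleotide excision repair had 2 of 18 genes lower (11.1%), ERCC2 most (-0.70), and as many higher, ERCC5 most (1.17). Base excision repair had 2 of 20 lower, a smaller share than over all genes, PARP1 most (-0.96), and as many higher, APTX most (0.73). After 3 days the numbers lower were 3, 2, 1 and 2 in the same order, and the numbers higher 0, 0, 3 and 1, beside 13.2% and 8.85% of all genes. The medians of these 4 lists at 6 days were 0.08, -0.18, 0.20 and -0.09, close to that of all genes.

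**Figure D5:**
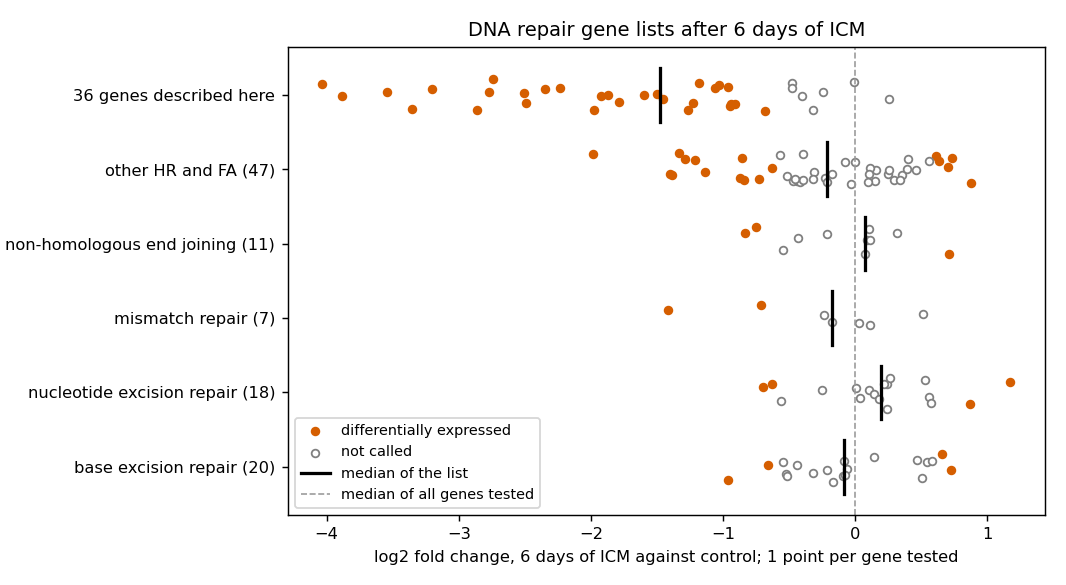
Log2 fold change of each tested gene after 6 days of ICM against control in the 36 genes described here and in 5 other lists of repair genes, with filled points for differentially expressed genes, a black bar for the median of a list and a dashed line for the median of all genes. The median of the 36 lies at -1.48, and those of the other lists lie between -0.21 and 0.20. All lists were chosen with earlier results of these data known.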

How the data were processed

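The authors prepared "factory" RNA-Seq libraries, meant to capture nascent RNA, from IMR90 cells, aligned read pairs to hg19 (GRCh37) with STAR (version 2.6.0c per the labels) and deposited, for each library, unnormalized counts of read pairs on the exons of each RefSeq gene. Per the file headers, featureCounts 1.6.3 counted pairs without regard to strand, only with both ends mapped and not chimeric, and left out pairs on several places or genes. The labels name polyA RNA, and exon counts cannot separate nascent from mature RNA. The study's own nascent values rest on introns, which were not analysed here.

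Pairs of conditions (4 libraries a fit, 6 comparisons) were fitted with edgeR 4.0.16 (R 4.3.3): TMM, filterByExpr at a count minimum of 10, the quasi-likelihood test and Benjamini-Hochberg adjustment. Levels are CPM with TMM factors over all 8 libraries. The fits were tested on simulated data. The 2 libraries of every condition differed by more than sampling noise, and each was counted as a replicate. The depth of 12095123 to 23166405 pairs limits MND1 and RMI2. Alternatives were DESeq2 1.42.0, other scalings and filters, all libraries in a single fit, an adjusted p limit of 0.01, a replicate block and each library left out; where that left a condition with 1 library, it was assumed to vary like the others.

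The members and the lists were chosen with earlier results of these data known. Values per library are given for the member of each role with the largest change at 6 days, for members called between 6 and 3 days or between MetaICM and 6 days, and for those not called lower at either time; in practice nearly all met this. Of other repair genes, the 3 (further recombination and Fanconi anemia genes) or 1 (other routes) with the largest change each way are named. Some genes that this rule would name are not reported here. Neighbouring genes are those that start within 1000 bases on the opposite strand. Promoter sequences are from RefSeq (table of GRCh38.p14), placed in GRCh37 by exact match. Tables and figures were made with Python 3.11.15, numpy 2.4.6, pandas 2.3.3 and matplotlib 3.10.9.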

Additional observations from a re-analysis of the deposited data

Results flagged for a closer look

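For 3 genes the response differed between the time points by the direct test of 6 against 3 days of ICM. BRIP1 (log2FC -0.89), MUS81 (-0.75) and BARD1 (-0.62) were lower at 6 days. The call of BARD1 was lost without ICM 3-day replicate 2 (-0.47) and without ICM 6-day replicate 1 (-0.45). That of MUS81 was lost without ICM 3-day replicate 1, where its log2FC of -0.598 lay just inside the size limit. With 2 libraries per condition, no test for an outlying library was possible.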

How the results depend on the processing

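Of 2810 values of single members recomputed under an alternative, 53 changed their call (29 lost it and 24 gained it), and no called value changed sign. Another 37 values that were called in neither fit changed sign, all between -0.14 and 0.20. The median log2FC of the members stayed between -1.36 and -1.23 at 3 days, between -1.52 and -1.37 at 6 days and between -0.35 and -0.17 for 6 against 3 days. In MetaICM it stayed between -0.42 and -0.24 against control, 1.23 and 1.35 against 6 days and 0.95 and 1.17 against 3 days. The number of members lower after 3 days ran from 23 to 27 and after 6 days from 26 to 29 over all alternatives. Scaling to library totals gave 6 members lower at 6 than at 3 days in place of 3. Over the libraries left out, that number ran from 2 (without ICM 6-day replicate 1) to 7 (without ICM 3-day replicate 1), and the members higher in MetaICM than in control from 0 to 1 (RMI2, without control replicate 2); most of these log2FC lie near the limit of 0.6, and the cause was not tested.

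The labels give same-numbered libraries only the number in common, so whether they shared a culture or batch is not known. The correlation of their deviations ran from -0.11 to 0.18 over the 6 comparisons, with the highest value for 3 days against control. With the replicate number as a block, 26 members were lower at 3 days, 29 at 6 days and 4 (RAD54L added) between 6 and 3 days, and no other count of members changed. For MetaICM against 3 days, where the correlation was under -0.1, a crossed pairing chosen after seeing the data gave 23 members higher and 0 lower.

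With 2 libraries per condition, differences near the size limit cannot be settled, and MND1 and RMI2, with few reads, did not pass the count filter between the ICM times.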
